A study of Mus musculus with 18 samples.

Results

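The genes of the cytosolic ribosomal proteins were followed in primary cortical astrocyte cultures in which the ribosome itself was the handle of the purification. A gene was a member when its biotype was protein coding and its symbol named a protein of the large (Rpl, Rplp) or small (Rps, Rpsa) ribosomal subunit, with the S6 kinases (Rps6k) and *Rps19bp1* left out. The rule found 98 of the 51912 genes counted, 63 of the large and 35 of the small subunit. By their symbols 77 were canonical genes (46 large, 31 small), 7 were paralogues (*Rpl3l*, *Rpl7l1*, *Rpl10l*, *Rpl22l1*, *Rpl36al*, *Rpl39l* and *Rps27l*), 1 was the retrogene *Rps27rt*, and 13 carried a pseudogene suffix although they were annotated as protein coding.

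All cultures came from mice of the JD130Htz line, on a mixed B6;FVB background and hemizygous for Tg(Aldh1l1-EGFP/Rpl10a), which makes RPL10A fused to EGFP under the *Aldh1l1* promoter, so only cells that use this astrocyte promoter make tagged ribosomes. Cortices were taken at postnatal day 0 from males and females in the same numbers, and the replicates are dishes, since nothing in the labels says that they came from separate cultures. P-values therefore measure the spread between these dishes. Dishes were held in medium without serum and then exposed for 24 h to 50 mM ethanol or to medium alone. TRAP, an immunoprecipitation of tagged ribosomes with GFP antibodies, gave the IP libraries (6 control, 6 ethanol), and the lysate before the pulldown gave the input libraries (3 control, 3 ethanol) of the dishes numbered 4 to 6.

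A ribosome is a small subunit, which reads the mRNA, and a large subunit, which joins amino acids. Its proteins are made in matched amounts, and their mRNAs are short, abundant and begin with a run of pyrimidines (5′TOP motif) through which mTORC1 and LARP1 set how much of each mRNA sits on ribosomes. In cells at rest a large share of these mRNAs is stored outside polysomes.

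The start sites of the members on which the results turn are shown first. Each window has 35 bases before the RefSeq start site and 25 bases from it, on GRCm38.p6 and on the strand of the gene, and capitals mark pyrimidine runs of at least 6 bases. *Rps12* (chr10:23787185-23787244, minus strand), *Rps28* (chr17:33824538-33824597, minus) and *Rplp0* (chr5:115559432-115559491, plus) were among the members most depleted from IP, and *Rpl22* (chr4:152325691-152325750, plus), *Rpl10a* (chr17:28328436-28328495, plus) and *Rpl19* (chr11:98026675-98026734, plus) among the least depleted. *Rpl22*, *Rpl10a*, *Rpl19* and *Rps27l* have 2 RefSeq start sites each, of which the one listed first is shown.
Rps12: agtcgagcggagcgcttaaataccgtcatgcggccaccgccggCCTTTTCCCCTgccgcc
Rps28: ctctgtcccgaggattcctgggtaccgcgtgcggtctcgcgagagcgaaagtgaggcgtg
Rplp0: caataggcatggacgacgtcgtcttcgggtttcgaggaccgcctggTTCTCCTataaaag
Rpl22: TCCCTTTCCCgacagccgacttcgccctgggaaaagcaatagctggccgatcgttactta
Rpl10a: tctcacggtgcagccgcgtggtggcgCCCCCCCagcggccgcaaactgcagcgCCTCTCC
Rpl19: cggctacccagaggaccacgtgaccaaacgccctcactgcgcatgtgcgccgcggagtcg

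The paralogues of the ratio tests follow. *Rps27* (chr3:90213624-90213683, minus) and *Rps27l* (chr9:66946051-66946110, plus) each have 2 runs, the longest of 9 bases, and a run within 5 bases of the start site. *Rpl22l1* (chr3:28805473-28805532, plus) also has a run within 5 bases of the start site, which the *Rpl22* window above does not. The other start site of *Rpl22* is not shown, so the windows do not give a full comparison of this pair. All start sites here are annotated ones and were not measured in these cultures. *Rpl7l1* is at chr17:46782632-46782691 (minus).
Rps27: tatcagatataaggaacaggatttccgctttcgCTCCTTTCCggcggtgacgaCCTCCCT
Rps27l: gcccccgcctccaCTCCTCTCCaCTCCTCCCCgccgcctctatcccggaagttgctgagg
Rpl22l1: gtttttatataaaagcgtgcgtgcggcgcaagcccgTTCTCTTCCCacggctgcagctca
Rpl7l1: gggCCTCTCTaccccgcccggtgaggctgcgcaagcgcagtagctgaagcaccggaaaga

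The last windows are those of the large subunit genes that had, among members called, the largest decreases after ethanol in IP, *Rpl13a* (chr7:45128721-45128780, minus), *Rpl35* (chr2:39005107-39005166, minus) and *Rpl12* (chr2:32961677-32961736, plus).
Rpl13a: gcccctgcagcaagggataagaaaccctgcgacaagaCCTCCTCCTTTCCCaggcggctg
Rpl35: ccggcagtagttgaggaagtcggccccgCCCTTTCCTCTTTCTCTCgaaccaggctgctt
Rpl12: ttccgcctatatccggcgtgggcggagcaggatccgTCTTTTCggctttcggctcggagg

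RefSeq start sites of 65 of the 98 members were at hand, in 77 windows. A pyrimidine run of at least 6 bases that reached within 5 bases of the start site was present in 44.2% of them, against 21.0% of all 32851 windows of annotated genes. Over the whole 300-base promoter window, from 250 bases before to 50 bases after the start, the ETS motif CCGGAAG on either strand was present in 35.1% of member windows and 8.86% of all windows. The YY1 motif AAGATGGC was present in 10.4% and 2.75%. The end of the ETS motif and the start of the YY1 motif share the letters AAG, so a single stretch can hold both, and a match describes the sequence only.

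The 18 libraries held 74239854 to 132810705 read pairs counted on genes. Read pairs mapped to several places were not counted and made up 4.56 to 4.77% of the pairs in input and 2.95 to 3.19% in IP, and mitochondrially encoded genes took 2.36 to 2.65% of the counts in input and 0.114 to 0.155% in IP. Of 8 astrocyte markers 8 were higher in IP (summed level 1099 to 1179 CPM in input and 1730 to 1926 CPM in IP), and 5 of 6 microglia markers were lower (44.9 to 55.2 and 7.40 to 10.2 CPM). The summed levels of the other markers in input and IP were 209 to 217 and 100 to 118 CPM for 5 fibroblast and meningeal genes (3 lower, 2 higher), 138 to 144.6 and 96.7 to 106 CPM for 6 endothelial and mural genes (2 lower, 2 higher, 1 at 0 in every group), 97.3 to 109 and 118 to 138 CPM for 6 neuronal genes (1 lower, 3 higher), and 36.9 to 40.0 and 48.2 to 56.9 CPM for 6 genes of the oligodendrocyte lineage (3 lower, 2 higher). Where a dish gave both fractions, input and IP came from the same lysate, so a marker shift between them does not show a difference in cell number. Between dishes, fewer cells of a type and less RNA per cell cannot be told apart in these bulk libraries. The part of the marker shifts in the results below was not tested, except where a value is given.

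Ribosomal protein genes are unusual in how many copies of them lie in the genome. The coding sequence of 61 of the 77 canonical genes was wholly covered by stretches of at least 100 bases with at least 98% identity elsewhere in GRCm38, and 11 had no such stretch. The median canonical gene had 9 copies of at least 90% of its coding sequence at 90% identity or more, and *Rpl21* had 80. Pairs that fit several copies were left out of the counts of single genes. Of the 98 members 95 had at least 10 counts over the 18 libraries. *Rpl10l* and *Rpl36-ps4* had 0 counts, and *Rpl9-ps1* had 2.

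The members shared the ribosome but not the level of their mRNA. Per kb of merged exon and averaged over the 18 libraries, *Rplp1* of the P stalk had the highest level (862 CPM per kb), followed by *Rps15* (630 CPM per kb) and *Rpl36* (514 CPM per kb). In the input libraries alone *Rplp0* (789 CPM per kb in control and 776 after ethanol) stood above *Rpl36* (746 and 732 CPM per kb), so the order depended on the fraction. The median was 140 CPM per kb for the canonical large subunit genes and 173 CPM per kb for the small subunit genes. At the low end, among members with at least 1 CPM, stood *Rpl9-ps6* (2.44 CPM per kb), *Rps27rt* (2.77 CPM per kb) and *Rpl22l1* (8.65 CPM per kb). *Rps27rt* was above *Rpl9-ps6* in input control (5.09 and 3.90 CPM per kb) and below it in IP control (1.66 and 1.97 CPM per kb), where the difference was within the SD between libraries. The order also depended on the length used, with a Spearman correlation of 0.63 across 77 canonical genes between merged exons and the principal transcript, by which *Rpl36* fell to rank 25 and *Rpl22l1* was at 31.2 CPM per kb.

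Counting without strand set several levels. A pair that overlaps 2 genes on opposite strands is assigned to neither, so *Rpl23a* kept 92163 pairs over all libraries where counts of its own strand held 420760 (*Tlcd1* lies opposite). *Rpl35* kept 113303 of 277386 (*Arpc5l* and *Wdr38* opposite) and *Rpl22l1* 26785 of 62250 (*Gm33051* opposite). *Rpl24* had 216 pairs, of which 99 lay on its own strand and 117 on the opposite one, and *Gm28037* shares part of its exons. *Rpl13a*, with 31964 pairs, shares exons with *Gm45713*. The levels of these genes are therefore uncertain.

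The comparison of IP with input set the share of each mRNA in the RNA of tagged ribosomes against its share in the lysate. The lysate holds RNA of all cells of a dish, and the part of cell type in the differences was not tested. Every canonical ribosomal protein gene was lower in IP, and the module took a smaller share of the library. The share of all counts that fell on the members was 3.89% ± 0.083 (SD, n = 3) in input control and 3.77% ± 0.029 (SD, n = 3) in input ethanol, against 1.95% ± 0.043 (SD, n = 6) in IP control and 1.84% ± 0.065 (SD, n = 6) in IP ethanol. The highest IP library (2.02%) stayed below the lowest input library (3.74%). By edgeR's quasi-likelihood test with Benjamini-Hochberg adjustment over 24495 genes, 85 of 95 members were lower in IP (25.8% of all genes tested were) and 0 were higher (25.2% of all genes), with 0 higher at an unadjusted p below 0.05 and 0 by DESeq2. The median log2 fold change was -1.003 over the members and -0.03 over all genes tested. In 80 of the 95 members, and in 76 of the 77 canonical genes, every IP library lay below every input library, as it did in 11.9% of all genes tested. Tested against a 1.2-fold change, 83 members were lower (12.4% of all genes). With mitochondrially encoded genes left out of the fit, an alternative chosen after the data were seen, 85 were lower with a median of -1.004. Across 76 canonical genes the fold change had a correlation of -0.03 (Spearman -0.13) with the number of copies in the genome, which is a description without a test since genes share libraries.

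**Figure D1:**
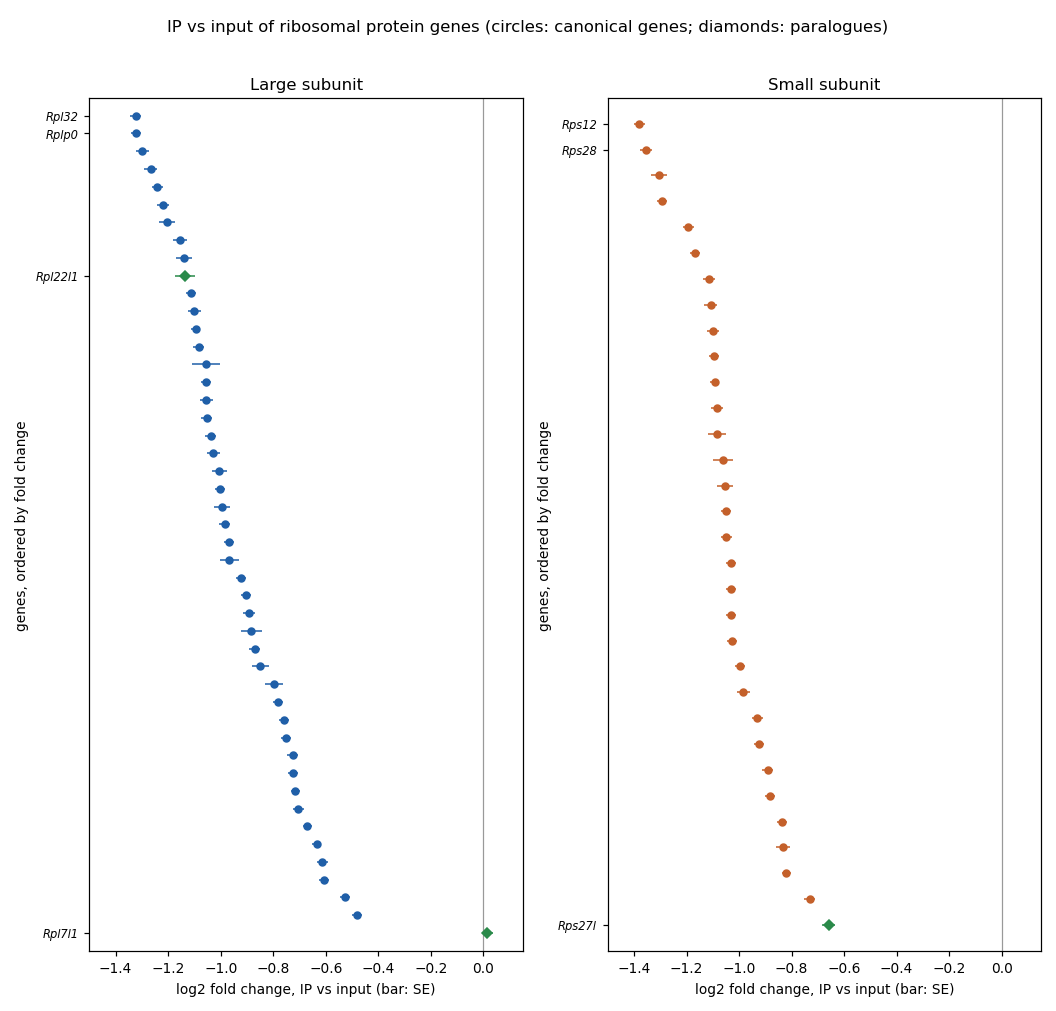
Log2 fold change of IP vs. input (x axis) for each member that averaged 5 CPM or more (y axis), large subunit left and small subunit right; ordered by the fold change, with the paralogues and both ends of each panel named; points are edgeR estimates and bars their SE, circles canonical genes and diamonds paralogues. All canonical genes lie left of 0, from *Rps12* at -1.38 to *Rpl22* at -0.48, and the diamond at 0.01 is *Rpl7l1*.

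Within the large subunit, the P stalk, which recruits the GTPase factors of translation, was lower in IP. *Rplp0* had 1313, 1318 and 1295 CPM in input control and 1332, 1258 and 1272 CPM in input ethanol. Its IP libraries had 507 to 555 CPM (median 525) in control and 470 to 526 CPM (median 513) in ethanol. The fractions did not overlap, and the log2 fold change was -1.32 ± 0.02 (SE, edgeR adjusted p = 6.9e-59). *Rplp1* fell from 712 ± 38.5 CPM (SD, n = 6) in input to 290 ± 21.5 CPM (SD, n = 12) in IP, a log2 fold change of -1.30 ± 0.02, and *Rplp2* changed by -0.97 ± 0.03.

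*Rpl32* (-1.32 ± 0.02) stood with *Rplp0* and *Rplp1* at the largest decreases of the large subunit. It read 383 to 413 CPM (median 399) in input and 143 to 177 CPM in IP. *Rpl39*, a small protein in the wall of the exit tunnel, changed by -1.27 ± 0.03 and *Rpl36a* by -1.10.

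The genes at the other end of the order also belong to the large subunit. *Rpl22*, an RNA-binding protein at the surface of the subunit, read 403, 397 and 386 CPM in input control and 383, 384 and 386 CPM in input ethanol. In IP it read 278 to 299 CPM (median 289) in control and 262 to 278 CPM (median 269) in ethanol. Its IP and input libraries did not overlap, yet its decrease of -0.48 ± 0.02 was the smallest of the canonical genes. Next came *Rpl10a*, the tagged protein, at -0.53 ± 0.02, where pairs of the transgene and of the gene itself cannot be told apart, and then *Rpl8* (-0.61), *Rpl19* (-0.61) and *Rpl5* (-0.64), of which *Rpl8* and *Rpl19* were singled out after their values were seen.

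*Rpl5* and *Rpl11*, which form the 5S particle and can hold MDM2, were lower by 0.64 and 0.70 on the log2 scale. *Rpl11* read 497 to 516 CPM in input and 282 to 333 CPM in IP. Of the proteins near the peptidyl transferase centre, *Rpl3* changed by -0.67, *Rpl8* by -0.61 and *Rpl10* by -1.10, and the *Rpl10* libraries read 646 to 683 CPM in input and 285 to 323 CPM in IP.

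Among members that averaged 5 CPM or more, the 2 largest decreases were in the small subunit. *Rps12* (ENSMUSG00000061983, GRCm38 chromosome 10 from 23785183 to 23787275, minus strand) read 482, 496 and 484 CPM in input control and 465, 475 and 450 CPM in input ethanol. In IP it read 183 to 198 CPM (median 190) in control and 166.7 to 188 CPM (median 171) in ethanol. The fractions were far apart, and the log2 fold change was -1.38 ± 0.02 (edgeR adjusted p = 1.0e-55). *Rps28* followed at -1.35 ± 0.02 and *Rps27* at -1.30 ± 0.03. *Rps28* and *Rps26* (-1.10) lie where the mRNA leaves the small subunit, and *Rps2* (-1.05), *Rps3* (-0.82), *Rps15* (-0.93) and *Rps23* (-0.73) at its entry and the decoding site.

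*Rps6*, the target of the S6 kinases, was lower by 1.03 on the log2 scale, near the median of the small subunit. *Rps4x*, encoded on the X chromosome, changed by -1.10. *Rpsa*, also known as the laminin receptor, changed by -0.88, and *Rps27a*, whose product is joined to ubiquitin, by -0.84.

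The subunits moved together but not equally. The median log2 fold change was -0.98 over 46 canonical large subunit genes (46 lower) and -1.05 over 31 small subunit genes (31 lower). The interquartile range ran from -1.09 to -0.76 in the large subunit and from -1.10 to -0.96 in the small subunit. The ratio of large to small subunit counts, which does not depend on library scaling, was 1.38 ± 0.0019 (SD, n = 3) in input control, 1.37 ± 0.0017 (SD, n = 3) in input ethanol, 1.49 ± 0.0031 (SD, n = 6) in IP control and 1.48 ± 0.0074 (SD, n = 6) in IP ethanol. The highest input library (1.38) lay below the lowest IP library (1.47). After ethanol the ratio was 1.370 to 1.373 in input, below the 1.380 to 1.383 of control, and 1.466 to 1.486 in IP, where it overlapped the 1.481 to 1.490 of control. Across 76 canonical genes the fold change went with the log of the coding length (Pearson r = 0.40, Spearman rho = 0.42), so longer members were on the whole less depleted. With offsets that remove a smooth trend over transcript length and GC content, 83 members were lower (20% of all genes tested), the median was -0.76, and *Rpl7l1* passed the test as higher (0.10, edgeR adjusted p = 2.7e-06). Under these offsets the correlations with the log of the coding length were smaller (Pearson r = 0.27, Spearman rho = 0.28).

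**Figure D2:**
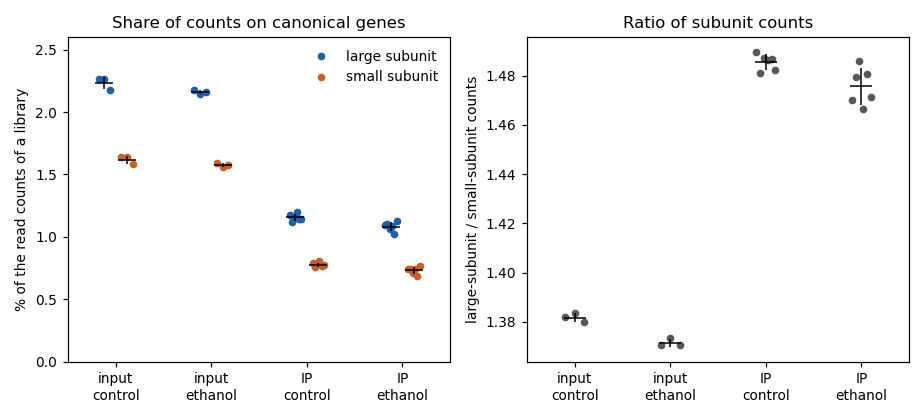
Share of the counts of a library on canonical genes (left, percent) for the large and small subunit, and the ratio of large to small subunit counts (right, y axis not starting at 0), by group; points are libraries, bars the mean and SD. The ratio is 1.37 to 1.38 in the 6 input libraries and 1.47 to 1.49 in the 12 IP libraries.

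The 10 members that did not pass the test were *Rpl7l1*, *Rpl36al*, *Rpl3l* and 7 of the 11 pseudogene-named members tested. *Rpl24*, the canonical gene whose libraries overlapped, read 0.198 ± 0.076 CPM in input and 0.112 ± 0.049 CPM in IP and was called at -0.83 (adjusted p = 0.019). By counts of its own strand its change was -1.25 (adjusted p = 0.017), and with the offsets for length and GC content it was not called (-0.53, adjusted p = 0.15). The retrogene *Rps27rt*, which is 252 coding bases on chromosome 9 with near-identical copies, fell from 1.75 ± 0.22 CPM to 0.679 ± 0.14 CPM (-1.35).

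Paralogues can replace a canonical protein in part of the ribosomes, and their mRNAs were compared as ratios within a library. Read pairs that fit several genomic copies were not counted. Copies of at least 98% identity elsewhere cover 89.1% of the coding sequence of *Rpl7* and 100% of those of *Rpl22l1* and *Rps27*. For *Rpl7l1*, *Rpl22* and *Rps27l* the share is 0%, and the part of this difference in the ratios was not tested. Of 8 pairs listed, 3 had at least 20 counts of each gene in every library and were tested by two-sided exact permutation tests, adjusted over the 3 pairs. *Rpl7l1*, a paralogue of *Rpl7* known from ribosome assembly, did not follow the module. It read 97.5, 97.9 and 93.8 CPM in input control, 97.5, 95.4 and 92.4 CPM in input ethanol, 93.0 to 101 CPM (median 96.3) in IP control and 93.2 to 101 CPM (median 96.2) in IP ethanol. The 4 groups overlapped throughout, with a log2 fold change of 0.01 ± 0.02 (edgeR adjusted p = 0.63). *Rpl7* read 765 to 823 CPM in input and 444 to 503 CPM in IP (-0.72 ± 0.02). The log2 ratio of *Rpl7* to *Rpl7l1* was 3.05 ± 0.043 (SD, n = 6) in input and 2.31 ± 0.044 (SD, n = 12) in IP, and over the 6 dishes with both fractions it fell by 0.75 ± 0.052 (SD of the dish differences), in 6 of 6 dishes. The exact p was 0.03125, which is the smallest that 6 dishes can give, and so was the adjusted p.

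The pair of *Rpl22* went the other way. *Rpl22l1* read 27.7, 27.8 and 24.7 CPM in input control, 25.3, 28.2 and 28.2 CPM in input ethanol, 11.1 to 13.8 CPM (median 12.9) in IP control and 11.2 to 13.5 CPM (median 11.8) in IP ethanol. Every IP library was below every input library, with a log2 fold change of -1.13 ± 0.04 (edgeR adjusted p = 2.6e-32). The log2 ratio of *Rpl22* to *Rpl22l1* rose by 0.66 ± 0.061 in 6 of 6 dishes (exact p = 0.03125, adjusted 0.03125), and by 0.73 with counts of the own strand. *Rpl22* was the least depleted canonical gene, while *Rpl22l1* was below the median of the large subunit (-0.98).

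In the small subunit, *Rps27l*, a target of p53, was less depleted than *Rps27*. *Rps27* read 407, 406 and 378 CPM in input control, 378, 383 and 405 CPM in input ethanol, 157 to 166.5 CPM (median 161) in IP control and 143 to 174 CPM (median 157) in IP ethanol. *Rps27l* read 171, 160 and 158 CPM in input control, 163.5, 159 and 162.6 CPM in input ethanol, 99.8 to 113 CPM (median 107) in IP control and 94.7 to 106 CPM (median 97.8) in IP ethanol. Both fell without overlap of the fractions, by 1.30 and 0.66 on the log2 scale, and their log2 ratio fell by 0.61 ± 0.11 in 6 of 6 dishes (exact p = 0.03125, adjusted 0.03125). By CPM per kb of merged exon *Rps27* exceeded *Rps27l* 1.89-fold in input and 1.21-fold in IP, and per kb of the principal transcript 3.5-fold and 2.24-fold.

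**Figure D3:**
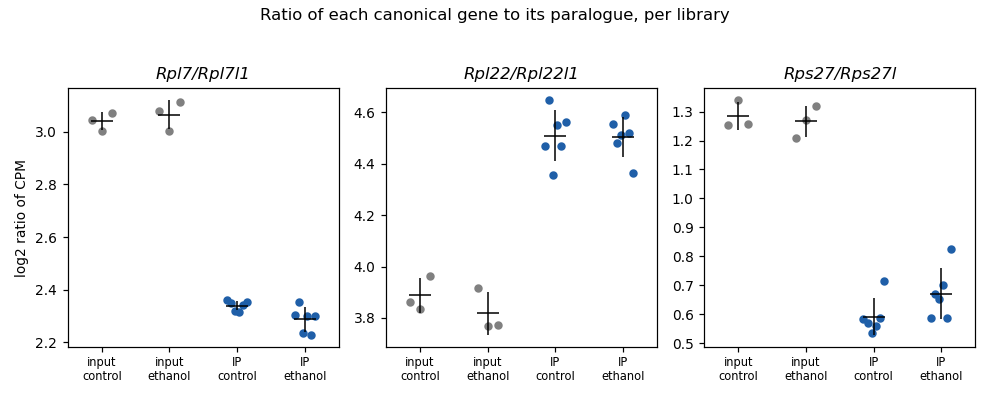
Log2 ratio of the CPM of each canonical gene to its paralogue (y axis) by group; points are libraries, bars the mean and SD (3 input and 6 IP libraries a group). For *Rpl7*/*Rpl7l1* and *Rps27*/*Rps27l* the IP libraries are below the input libraries, and for *Rpl22*/*Rpl22l1* above them.

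The other paralogues were too low for a ratio test. *Rpl3l*, the form of striated muscle, had 60 counts over the 18 libraries, *Rpl39l*, a form of the testis, 89, and *Rpl36al* 565, and *Rpl10l* had 0. *Rpl36al* read 0.184 to 0.499 CPM over IP libraries and 0.287 to 0.464 CPM over input libraries and differed by -0.07 ± 0.19 (adjusted p = 0.79), and part of its exons is shared with *Gm49383*. *Rpl39l* was called lower (-1.94 ± 0.48, adjusted p = 0.00035) from 0.114 to 0.0292 CPM, at 0 to 20 counts a library. *Rps4l* was not analysed here.

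Other genes of the ribosome were read from lists written from general knowledge. Of the ribosomal proteins that the symbol rule does not catch, *Fau* (-0.73) and *Rack1* (-0.98) were lower in IP. Of 18 other mRNAs with a 5′TOP motif, 14 were lower and 2 higher (25.8% and 25.2% of all genes tested) with a median of -0.40, from the translation-linked *Tpt1* (-1.41) and the elongation factor gene *Eef1b2* (-0.92) to the intermediate filament gene *Vim* (0.22), which was higher. Of 263 ribosomal protein pseudogenes with a pseudogene biotype, those with enough counts were tested, and 64 were lower, 0 higher and 84 not called, with a median of -0.88 over those tested.

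Genes that make or control ribosomes gave other counts, where 25.2% of all genes tested were higher and 25.8% lower. Of 14 ribosome assembly factors 10 were higher in IP and 0 lower (median 0.17), among them *Bop1* (0.29) and *Rrs1* (0.27). Of 13 genes of mTORC1 and the regulators of 5′TOP mRNAs, 7 were higher and 4 lower (median 0.05), with *Larp1* at 0.32 and *Mtor* at -0.28. The 77 mitochondrial ribosomal protein genes tested gave 22 higher and 30 lower (median -0.02). The share of higher genes was near that of all genes tested, and the share of lower genes was above it.

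**Figure D4:**
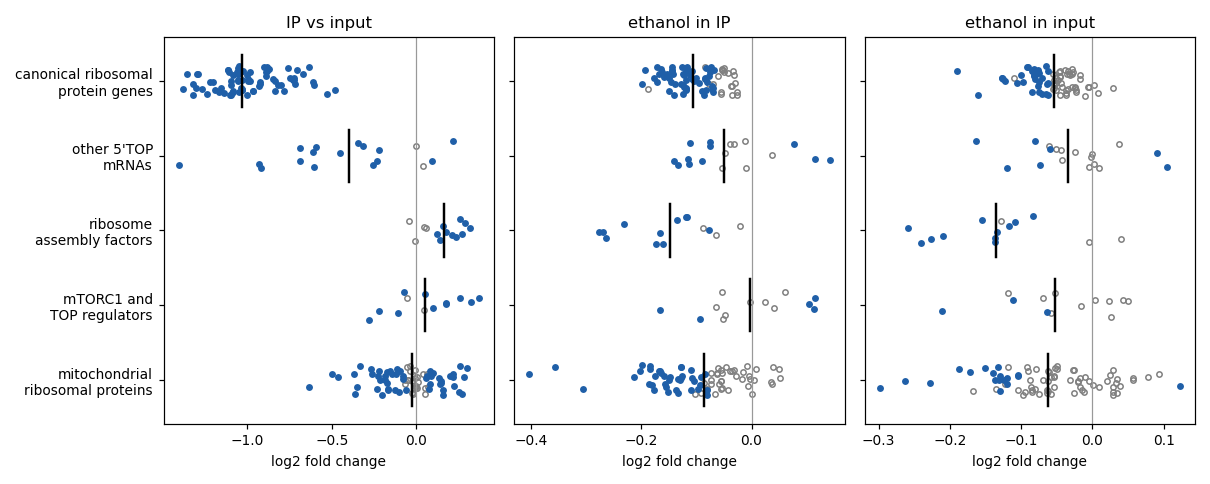
Log2 fold change of each gene (x axis) in IP vs. input, ethanol in IP and ethanol in input, for 5 gene lists; filled points have an edgeR adjusted p below 0.05, and black lines are medians. In IP vs. input all canonical ribosomal protein genes lie below 0, while the assembly factors have a median of 0.17.

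The comparison of ethanol with control dishes was made within each fraction. In the IP fraction 55 of 95 members were lower after ethanol (9.48% of all genes tested) and 0 were higher (11.9% of all genes), by edgeR with adjusted p below 0.05. At an unadjusted p below 0.05, 69 were lower and 1 higher (*Rpl21-ps4*, a pseudogene-named member without a count in the IP control libraries), and DESeq2 called 61 lower and 0 higher. The decreases were small, with a median log2 fold change of -0.10 over the members against 0.01 over all genes. The calls comprised 33 of 46 canonical large subunit genes (median -0.11), 21 of 31 small subunit genes (median -0.08) and *Rps27l*. All 77 canonical estimates were negative, although 12 of them were above 0 with offsets for length and GC content and 2 when IP replicates 1 to 3 were tested alone. In 18 members every ethanol library lay below every control library (4.87% of all genes). Tested against a 1.2-fold change, 0 of 95 were lower by edgeR's glmTreat (0.233% of all genes), with 1 lower at an unadjusted p below 0.05.

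The share of counts on the members moved in the same direction, from 1.90 to 2.02% in IP control to 1.73 to 1.92% in IP ethanol, with overlap between the groups. Over the same libraries the summed astrocyte markers went from 1730 to 1808 CPM in control to 1854 to 1926 CPM after ethanol and the summed neuronal markers went from 130 to 138 to 118 to 125 CPM. The part of these shifts in the result was not tested. With the offsets for length and GC content 25 members were lower (10.8% of all genes) and 2 higher, *Rps4x* (0.05) and *Rps27a* (0.06), and the median was -0.05.

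*Rpl13a*, a protein also known for a role outside the ribosome, had the largest decrease in IP among the members called that averaged 5 CPM or more, with 16.4 to 18.7 CPM (median 17.1) in control and 14.4 to 16.3 CPM (median 14.7) after ethanol. The groups lay side by side without overlap, and the log2 fold change was -0.20 ± 0.04 (edgeR adjusted p = 0.00017). Other genes on the same strand share 35.4% of the exon bases of *Rpl13a*, so its level is uncertain. *Rpl35*, at the exit of the tunnel, read 51.2 to 56.6 CPM (median 54.4) in control and 43.9 to 51.2 CPM (median 46.9) after ethanol, a change of -0.19 ± 0.03 and of -0.16 by counts of its own strand, again without overlap by a narrow margin.

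*Rpl12*, near the base of the P stalk, read 266 to 287 CPM (median 268) in control and 226 to 254 CPM (median 241) after ethanol. The groups were apart, with a change of -0.18 ± 0.03 (edgeR adjusted p = 1.6e-07). *Rpl23a* read 43.3 to 49.4 CPM in control and 35.6 to 48.0 CPM after ethanol and did not pass the test (-0.19 ± 0.07, adjusted p = 0.090). It was called by DESeq2 (-0.19, adjusted p = 0.027) and by counts of its own strand (-0.12, adjusted p = 0.0017).

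Of the small subunit members called that averaged 5 CPM or more, *Rps28* changed most (-0.17 ± 0.03, adjusted p = 1.0e-05), with 102 to 109 CPM (median 105) in control and 85.9 to 101 CPM (median 92.3) after ethanol, without overlap. *Rps29* changed by -0.15 ± 0.05 (adjusted p = 0.036), a call that was lost when any of 8 single libraries was left out, with adjusted p from 0.053 to 0.084: IP control replicates 1 to 4 and IP ethanol replicates 1 and 3 to 5.

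Other members by role moved to differing extents. Of the P stalk *Rplp1* (-0.16) and *Rplp2* (-0.16) were lower and *Rplp0* (-0.05, adjusted p = 0.13) was not called. Near the peptidyl transferase centre *Rpl3* (-0.03), *Rpl8* (-0.05) and *Rpl10* (-0.05, adjusted p = 0.11) did not pass the test. *Rpl10* passed by DESeq2 (-0.06, adjusted p = 0.025). *Rpl11* (-0.10) was lower and *Rpl5* (-0.04, adjusted p = 0.31) not called, and *Rps6* missed the threshold (-0.06 ± 0.02, adjusted p = 0.067; 0.026 by DESeq2). *Rpsa* (-0.07, adjusted p = 0.026) lost its call without IP control replicate 1 (adjusted p = 0.060) or IP ethanol replicate 5 (0.12), and *Rpl36* (-0.17, adjusted p = 0.025) without IP ethanol replicate 1 (0.058) or 5 (0.065). *Rpl22*, with 278 to 299 CPM in control and 262 to 278 CPM after ethanol, was lower by 0.09 on the log2 scale, and its groups met without overlap.

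In the input fraction 34 of 95 members were lower after ethanol (7.78% of all genes tested) and 0 higher (7.21% of all genes), 22 of the large subunit (21 canonical and *Rpl9-ps6*) and 12 of the small subunit. At an unadjusted p below 0.05, 51 were lower and 0 higher, and DESeq2 called 31 lower and 0 higher. The median log2 fold change was -0.05 over the members and 0.00 over all genes, and 73 of the 77 canonical estimates were below 0 (54 with the offsets for length and GC content). In 31 members every ethanol library lay below every control library, against 13.1% of all genes tested. Tested against a 1.2-fold change 0 were lower by edgeR's glmTreat (0.192% of all genes) and 1 at an unadjusted p below 0.05, and with the offsets 11 were lower (7.36% of all genes) and 1 higher (*Rps27a*, 0.07). The count rested in part on single libraries, with 19 lower without input control replicate 5 and 21 without input control replicate 4. The summed astrocyte markers were 1099 to 1145 CPM in input control and 1152 to 1179 CPM after ethanol and the summed neuronal markers 106 to 109 and 97.3 to 104 CPM, and their part in the result was not tested.

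Among members that averaged 5 CPM or more, *Rpl23a* had the largest decrease in input, with 97.9, 103 and 87.9 CPM in control and 80.4, 86.3 and 87.3 CPM after ethanol. Its log2 fold change was -0.19 ± 0.04 (edgeR adjusted p = 0.0062), lost without input ethanol replicate 5 (adjusted p = 0.12), by DESeq2 (0.066) and with a filter of 1 CPM (0.14). By counts of its own strand its change was -0.10 (adjusted p = 0.00021), smaller in size than those of *Rpl13a* (-0.16), *Rplp1* (-0.13) and *Rps28* (-0.13) by the same counts. *Rpl13a* read 33.0, 31.4 and 27.8 CPM in control and 27.4, 28.4 and 26.9 CPM after ethanol, so that the groups overlapped. Its change was -0.16 ± 0.04 (adjusted p = 0.0015) and -0.11 (adjusted p = 0.13) without input control replicate 4.

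*Rplp1* read 739, 766 and 721 CPM in control and 662, 706 and 678 CPM after ethanol, without overlap (-0.13 ± 0.02, edgeR adjusted p = 4.5e-07). *Rps28* read 268, 270 and 256 CPM and 235, 246 and 248 CPM, also without overlap (-0.13 ± 0.02, adjusted p = 1.3e-06). *Rps16*, at the decoding side, changed by -0.09. The pseudogene-named *Rpl9-ps6* read 2.83, 3.08 and 2.45 CPM and 1.84, 2.34 and 1.73 CPM (-0.50 ± 0.13, adjusted p = 0.0017), and a near-identical copy of *Rpl9* cannot be counted apart from its relatives with certainty.

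Members called in input were compared with the calls in IP libraries of other dishes. The IP libraries of dishes 1 to 3 have no input library, and tested alone they gave 41 members lower (5.6% of all genes). Of the 34 members called in input, 29 were among these 41, which is 85.3% of the input calls and 70.7% of the IP calls. The matching overlap over all genes was not computed, so this overlap is not shown to be particular to the module. Across the 76 canonical genes that averaged 5 CPM or more, the ethanol fold changes of input went with those of IP replicates 1 to 3 (Pearson r = 0.66, Spearman rho = 0.62), over points that share libraries within each axis. The ethanol fold change in all IP libraries went with the log of the coding length (Pearson r = 0.57, Spearman rho = 0.60), so the shortest members had the larger decreases. In input these correlations were 0.24 and 0.24. The same correlation was not computed over all genes, nor for the ethanol changes under the offsets for length and GC content.

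**Figure D5:**
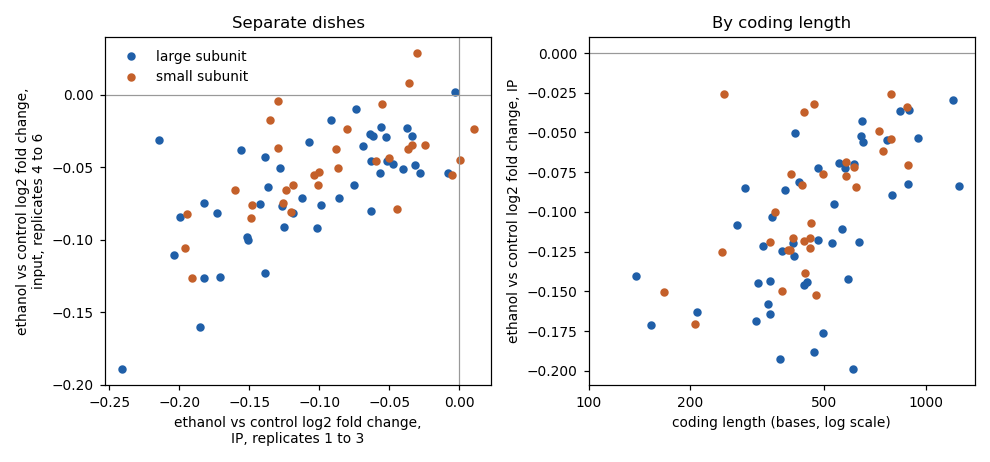
Left, log2 fold change of ethanol vs. control in input (y axis) against that in the IP libraries of other dishes (x axis), and right, the change in all IP libraries (y axis) against coding length in bases (x axis, log scale); each point is a canonical gene that averaged 5 CPM or more. In the right panel all points are below 0, and short genes lie lower than long ones (Pearson r = 0.57).

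The ethanol effect did not pass a test of a difference between fractions. In the interaction of ethanol and fraction 0 of 95 members and 0% of all genes tested had an adjusted p below 0.05 by edgeR, with 2 members higher and 10 lower at an unadjusted p below 0.05 and 0 members by DESeq2. The median interaction was -0.05 on the log2 scale. The 2 that were higher are *Rpl9-ps6* and *Rps27rt*, both low.

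The paralogue ratios did not pass the test for ethanol. In IP the change of *Rpl7*/*Rpl7l1* was -0.05 ± 0.036 (exact permutation p = 0.022, adjusted 0.065, and -0.07 with adjusted p = 0.0065 without IP ethanol replicate 2), of *Rpl22*/*Rpl22l1* -0.0050 ± 0.090 (adjusted p = 0.94, and -0.06 with adjusted p = 0.10 by counts of the own strand) and of *Rps27*/*Rps27l* 0.08 ± 0.077 (adjusted p = 0.16), where ± is the SD between libraries. In input 3 against 3 libraries cannot give an exact p below 0.1, and all 3 adjusted p were 0.7. By counts of the own strand *Rpl22*/*Rpl22l1* changed by -0.11 in input (adjusted p = 0.3).

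The lists beside the module moved with ethanol as follows, where 9.48% of all genes tested were lower and 11.9% higher in IP and 7.78% and 7.21% in input. Of 14 ribosome assembly factors 11 were lower in IP (median -0.15) and 11 in input (median -0.14), including the methyltransferase gene *Fbl* (-0.27 and -0.21) and *Nop56* (-0.23 in each). Of 77 mitochondrial ribosomal protein genes 39 were lower in IP (median -0.09) and 17 in input (median -0.06). Of 18 other 5′TOP mRNAs 8 were lower and 3 higher in IP, where *Npm1* (-0.13) and *Eef1b2* (-0.11) fell and *Eif4b* (0.14), *Pabpc1* (0.11) and *Eef2* (0.08) rose, and in input 5 were lower and 2 higher. Of the 13 regulators 2 were lower, *Myc* (-0.17) and *Larp4* (-0.09), and 3 higher in IP, and in input 3 were lower, *Myc* (-0.21), *Larp4* (-0.11) and *Larp1* (-0.06). *Fau* was lower in IP (-0.08, adjusted p = 0.029), and *Rack1* was called in neither fraction. The ribosomal protein pseudogenes had medians of -0.13 in IP and -0.09 in input.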

How the data were processed

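Per the labels, ribosome-depleted stranded total RNA libraries were made from the input and IP of the astrocyte dishes. The depletion is read here as that of ribosomal RNA, since IP holds the RNA of purified ribosomes. According to the submitters' processing notes and the methods, reads were trimmed with Trimmomatic and aligned with STAR to GRCm38 (mm10) with the Ensembl annotation. The authors deposited raw counts of read pairs per gene, without normalization. A pair mapped to several places was not counted, and a pair that fits several genes was assigned to none of them. The unstranded counts were used, as in the deposited count table, which differed from the single-library counts at 0 values, and the counts of the annotated strand served as an alternative.

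Genes with at least 10 counts over the 18 libraries (24495) were tested with edgeR 4.0.16 (TMM, robust quasi-likelihood F test) in R 4.3.3, with Benjamini-Hochberg adjustment over all of them and a threshold of 0.05. IP vs. input used 18 libraries with a treatment term, ethanol in IP 12, ethanol in input 6, and the interaction 18. Standard errors are the log2 fold change divided by the root of F. CPM is the count over the TMM-scaled library size, times 1e6. DESeq2 1.42.0 was an alternative, as were RLE size factors, total counts, other count filters, offsets for transcript length and GC content, a 1.2-fold threshold, replicate blocks and the omission of each library. Paralogue ratios were tested by exact permutation. The tests were checked on simulated data.

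The members and lists were chosen with earlier results of these data known. Genes named were those of the paralogue pairs, *Rpl10a*, the P stalk, *Rps6*, *Rpl5*, *Rpl11*, *Rpsa*, *Rps27a*, the 3 highest and 3 lowest per kb, and the 3 largest changes per subunit, direction and comparison among called members with at least 5 CPM. Other members are named for their role or, where said, after their values were seen. Some genes that this rule or the lists held are not reported here. The depth was 74239854 to 132810705 pairs on genes, so counting error is small except for members with few counts. These are the members below 1 CPM, and also *Rps27rt* (33 to 108 counts in IP libraries) and *Rpl9-ps6* (81 to 187 counts in IP libraries).

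Input and IP of a dish share the dish by their labels, and their deviations from the group means had correlations of 0.025 to 0.16. A control and an ethanol dish of equal number have nothing else in common by the labels. Their deviations had correlations of -0.11 to 0.24 in IP and of 0.027 to 0.069 in input.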

Additional observations from a re-analysis of the deposited data

Results flagged for a closer look

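In 86 checks of a group of 6 libraries, 5 had a highest or lowest library whose gap to its neighbour exceeded Dixon's critical value, and chance alone flags about 1 in 20. *Rpl12* was highest in IP control replicate 4 (287 CPM, others 266 to 271 CPM). The log2 ratio of *Rps27* to *Rps27l* was highest in IP control replicate 6 (0.71, others 0.53 to 0.59). *Rpl22l1* was highest in IP ethanol replicate 6 (13.5 CPM, others 11.2 to 11.97 CPM). In IP ethanol replicate 5, *Rps4x* (375 CPM, others 403 to 410 CPM) and *Rpsa* (392 CPM, others 429 to 437 CPM) were lowest. The reason was not tested.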

How the results depend on the processing

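The decrease of the module in IP kept its direction under every alternative run, with 83 to 86 members lower and a median of -1.03 to -0.99 when 1 library was left out. The median was -1.05 with total counts, -1.06 with a filter of 1 CPM and -0.76 with the length and GC offsets, under which 1 member was higher. The ethanol results depended more on the processing. In IP, 46 to 65 members were lower and 0 to 1 higher with 1 library left out, 25 were lower and 2 higher with a median of -0.046 under the offsets, 1 was higher without a count filter (*Rpl21-ps4*), and 0 were lower against a 1.2-fold change. Under the offsets 12 of the 77 canonical estimates in IP were above 0, among them *Rps4x* (0.053) and *Rps27a* (0.058), and so was *Rps27l* (0.0038). In input, 19 to 40 were lower with 1 library left out, 11 lower and 1 higher under the offsets, and 0 lower against a 1.2-fold change. Which of length and GC content moves these counts was not tested.

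With the dish as a replicate block 84 members were lower in IP with a median of -1.02 and the interaction stayed at 0. With the number as a replicate block, 63 were lower after ethanol in IP and 34 in input. The share of counts on the members was 3.98% in input control and 3.87% in input ethanol without mitochondrially encoded genes, and 3.72% in input ethanol by own-strand counts. With 1 dish left out the paralogue differences between IP and input were -0.76 to -0.73 for *Rpl7*/*Rpl7l1*, 0.64 to 0.67 for *Rpl22*/*Rpl22l1* and -0.64 to -0.58 for *Rps27*/*Rps27l*, and 5 dishes are too few for the exact test to pass its threshold. The ethanol change of *Rpl7*/*Rpl7l1* in IP was -0.065 to -0.040, with an adjusted exact p of 0.0065 without IP ethanol replicate 2. Depth limits the values of members below 1 CPM and those of *Rps27rt* and *Rpl9-ps6*.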
